A study of Mus musculus with 2 samples.

Results

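The vascular endothelial growth factor (VEGF) family was described through 9 genes: the 4 ligand genes Vegfa, Vegfb, Vegfc and Pgf, the 3 receptor genes Flt1, Kdr and Flt4, and the 2 neuropilin co-receptor genes Nrp1 and Nrp2. They were taken by symbol from the 32285 genes of the matrix, and all 9 were present once. Nuclei came from frozen mouse liver whose disease state is labelled HCC, hepatocellular carcinoma, and in which residual tumour was taken by microdissection. The labels list 2 samples, MRD-HCC 1 and MRD-HCC 2 (MRD, minimal residual disease), which form 1 group. Their treatment, strain, genotype and age are not given in the sources used here, and no control group was analysed here. The 17169 barcodes of the matrix were all distinct and carried 1 suffix, so no nucleus could be traced to a sample. The matrix was therefore treated as 1 pooled sample: no value below has a replicate, no test was possible, and intervals cover counting error only.

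VEGF ligands are secreted proteins that reach receptor tyrosine kinases on nearby cells. VEGF-A binds VEGFR1, encoded by Flt1, and VEGFR2, encoded by Kdr, which carries most of its signal into endothelial cells. VEGFR1 binds VEGF-A tightly but signals weakly, and a soluble form traps the ligand. VEGF-C acts mainly through VEGFR3, encoded by Flt4, in lymphatic growth, and neuropilins hold ligands near these receptors and also bind class 3 semaphorins. In normal liver, the endothelium of the sinusoids carries these receptors. Low oxygen raises Vegfa transcription through hypoxia-inducible factors.

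Levels are counts of unique molecular identifiers (UMIs) of a gene scaled to the total UMIs, in the usual CPM unit, summed over the nuclei of a class and given with an exact 95% Poisson interval. Classes were built from markers that held none of the 9 genes. A marker was met in a nucleus when its UMIs were improbable (Poisson tail under 0.01) for the free RNA of 1 droplet, and a nucleus entered a class with at least 3 markers met and at least 2 times the share of markers of any other lineage. Of 16411 nuclei that passed the filters, 6913 entered 14 classes, 8126 met no gate and 1095 were mixed. Only 43 of the 49929 uncalled barcodes used as free RNA met a gate. The epithelial classes were hepatocyte-like (2904 nuclei), Pkhd1-high (1180), Gpc3/Ccnd3-marked (645) and ductal-like (414). Endothelial nuclei were split by sinusoidal markers into sinusoidal endothelial-like (96, with at least 3 met), endothelial with few (236) and endothelial without (280). The mesenchymal classes were stellate-like (453), fibroblast-like (312), mesothelial-like (107) and mural-like (88, for pericytes and smooth muscle), and the immune classes macrophage-like (77), T cell-like (74) and Kupffer-like (47). Between 4.66% and 48.1% of the nuclei of a class, in endothelial with few sinusoidal markers and in macrophage-like nuclei, sat at the lowest number of markers that the gate allowed. The median number of markers met from any other lineage was at most 1 in every class. Within the epithelial lineage, classes shared markers. The Pkhd1-high markers summed to 5170 CPM in ductal-like and 5561 CPM in Pkhd1-high nuclei. Those of Gpc3/Ccnd3-marked nuclei summed to 6549 CPM in Pkhd1-high and 7399 CPM in ductal-like nuclei, against 8865 CPM in their own class.

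Free RNA was the background. It held Vegfa at 138 CPM, Nrp1 at 138 CPM, Flt1 at 74.8 CPM, Kdr at 51.5 CPM, Nrp2 at 39.7 CPM, Flt4 at 30.3 CPM, Vegfb at 21.2 CPM, Vegfc at 20.6 CPM and Pgf at 5.90 CPM. A gene was called in a class when its level was at least 2-fold above free RNA with the lower bound of the ratio above 1, among genes with at least 20 UMIs in sum. Levels of different genes are not compared with each other, since long genes give more UMIs in nuclei.

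In GRCm38 (mm10) with GENCODE vM21, Vegfa lay on chromosome 17 (46016993 to 46032369, minus strand), Vegfb on chromosome 19 (6982473 to 6987651, minus strand), Vegfc on chromosome 8 (54077606 to 54187096, plus strand) and Pgf on chromosome 12 (85166635 to 85177790, minus strand). Both Flt1 (147561604 to 147726011) and Kdr (75932827 to 75978458) lay on the minus strand of chromosome 5, and Flt4 on chromosome 11 (49609263 to 49652739, plus strand). Nrp1 on chromosome 8 (128358604 to 128503363, plus strand) holds the microRNA gene Mir1903. Nrp2 on chromosome 1 (62703285 to 62818695, plus strand) overlaps the antisense gene Gm29083 and, on its own strand, Gm37121, and reads of these genes may not be separable from those of Nrp2. The other 7 genes overlap no annotated gene.

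The sequences just upstream of 3 start sites are shown because the results turn on these genes: Vegfa followed the hypoxia genes, and Flt1 and Kdr were shared by endothelial nuclei but parted in other classes. They are RefSeq promoter sequences of GRCm38.p6, all on the minus strand and printed 5′ to 3′: chr17:46032378-46032627 for Vegfa (250 bases), chr5:147726012-147726261 for Flt1 (250 bases) and chr5:75978459-75978705 for Kdr (247 bases). Capitals mark 3 motifs, searched on both strands: GGAA, the core of ETS factor sites, written TTCC on the other strand, ACGTG, a form of the core of hypoxia response elements, written CACGT, and TGACGTCA, the palindromic cAMP response element.
Vegfa: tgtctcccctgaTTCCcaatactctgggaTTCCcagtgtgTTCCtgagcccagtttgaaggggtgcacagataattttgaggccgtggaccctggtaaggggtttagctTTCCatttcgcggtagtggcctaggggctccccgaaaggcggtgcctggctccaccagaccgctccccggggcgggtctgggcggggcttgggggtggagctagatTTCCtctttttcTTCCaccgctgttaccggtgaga
Flt1: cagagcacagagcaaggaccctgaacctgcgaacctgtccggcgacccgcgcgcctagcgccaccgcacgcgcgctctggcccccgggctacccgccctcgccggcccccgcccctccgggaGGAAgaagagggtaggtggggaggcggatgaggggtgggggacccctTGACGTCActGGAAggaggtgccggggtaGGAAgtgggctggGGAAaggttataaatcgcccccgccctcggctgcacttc
Kdr: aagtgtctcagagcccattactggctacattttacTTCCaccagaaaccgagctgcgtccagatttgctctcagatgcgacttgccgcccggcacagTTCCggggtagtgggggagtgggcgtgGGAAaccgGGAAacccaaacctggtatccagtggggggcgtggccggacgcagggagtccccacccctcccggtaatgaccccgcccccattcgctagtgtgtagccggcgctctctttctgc
The Vegfa window held 6 matches of GGAA, the Flt1 window 4 and the Kdr window 4. GGAA or TTCC stood in 93.4% of the 32851 windows of 250 bases in the table. TGACGTCA stood once, in the Flt1 window, 2 bases before a GGAA, and in 1.55% of all windows. ACGTG was in none of these 3 sequences and in 16.6% of all windows. Other forms of the core of hypoxia response elements were not searched. A second Vegfa window in the table, chr17:46025164-46025413 on the minus strand and overlapping annotated exons, held 1 match of ACGTG and 2 of GGAA.

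**Figure D1:**
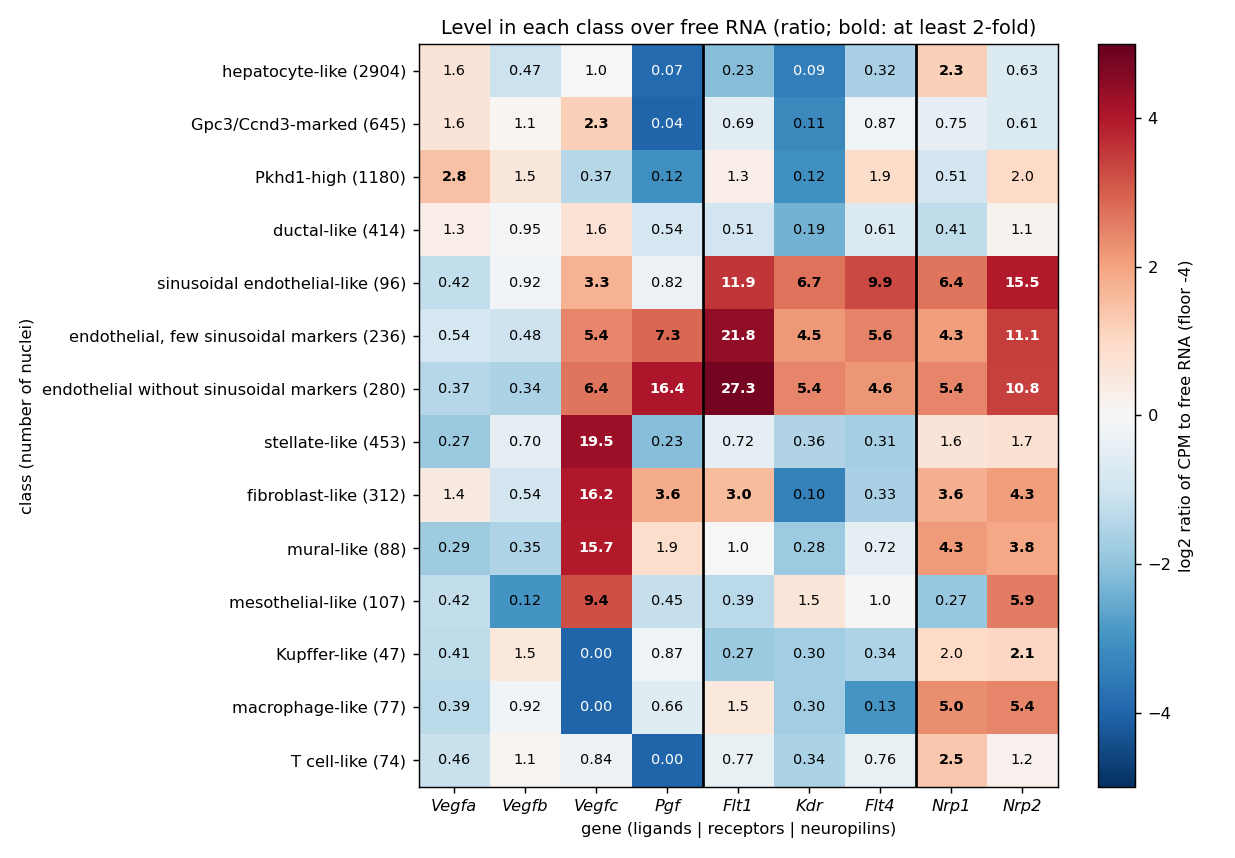
Ratio of the summed level of each of the 9 genes (columns) in each of 14 classes (rows, number of nuclei in brackets) to its level in free RNA. Colour gives the log2 ratio, and bold numbers mark ratios of at least 2 with a lower bound above 1. Receptors and neuropilins stand out in the 3 endothelial rows, Vegfc in the mesenchymal rows and Vegfa in the Pkhd1-high row.

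Receptor genes stood highest in endothelial nuclei, Vegfa in epithelial and Vegfc in mesenchymal nuclei. In endothelial nuclei without sinusoidal markers 7 of the 9 genes were called, all 5 receptor and neuropilin genes with Vegfc and Pgf, where 20.2% of all genes tested were. In those with few sinusoidal markers the same 7 genes were called (20.2% of all genes), and in sinusoidal endothelial-like nuclei 6, the same without Pgf (18.2%). Fibroblast-like nuclei had 5 called genes, Vegfc, Pgf, Flt1, Nrp1 and Nrp2 (23.3% of all genes), mural-like nuclei 3, Vegfc, Nrp1 and Nrp2 (16.9%), mesothelial-like nuclei 2, Vegfc and Nrp2 (17.3%), and macrophage-like nuclei 2, Nrp1 and Nrp2 (18.8%). A single gene was called in each of 6 classes: Vegfa in Pkhd1-high (27.5%), Vegfc in Gpc3/Ccnd3-marked (28.3%) and stellate-like (17.5%), Nrp1 in hepatocyte-like (20.5%) and T cell-like (14.5%), and Nrp2 in Kupffer-like nuclei (17.5%). In ductal-like nuclei no gene of the 9 was called (25.3%).

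Summed over the 612 endothelial and 5143 epithelial nuclei, 7 of the 9 genes were at least 2-fold higher in endothelium, where 15.4% of all genes were, and 1, Vegfa, was at least 2-fold lower, where 17.7% of all genes were. Vegfa stood at 62.0 CPM in endothelial and 244 CPM in epithelial nuclei, 3.93-fold (3.36 to 4.61) higher in epithelium. The receptors went the other way. Kdr stood at 270 CPM against 5.18 CPM, 52.1-fold (45.3 to 59.9) higher in endothelium, and Flt1 at 1689 CPM against 34.5 CPM, 49.0-fold (46.4 to 51.7). Flt4 was 9.03-fold (8.09 to 10.1), Nrp2 13.2-fold (12.3 to 14.2) and Nrp1 2.88-fold (2.74 to 3.02) higher in endothelium. Among the ligands, Pgf was 112-fold (75.3 to 171) and Vegfc 5.37-fold (4.72 to 6.11) higher in endothelium. Vegfb differed by less than 2-fold, at 10.3 and 15.1 CPM. The epithelial sum was mostly hepatocyte-like, which gave 71.2% of its UMIs. These counts of 7 and 1 were the same under all 11 alternative settings. Markers of dendritic cells (209 to 396 CPM against 22.6 CPM, with Cd209a at 0) and of mural cells (207 to 448 CPM against 153 CPM, with Cnn1 and Lmod1 at 0) stood above free RNA in all 3 endothelial classes. In sinusoidal endothelial-like nuclei, so did those of Gpc3/Ccnd3-marked nuclei (2719 CPM against 1069 CPM, with Slc6a20a and Eps8l3 at 0) and of macrophages (826 CPM against 533 CPM, none at 0). The same held there for stellate cells (425 CPM against 227 CPM, with Hhip at 0) and T cells (82.6 CPM against 42.7 CPM, with Cd3e, Cd3g and Cd8a at 0). Mesothelial markers were above their 42.3 CPM in free RNA at 77.8 CPM there (4 of 7 at 0) and at 94.2 CPM with few sinusoidal markers (Msln and Upk3b at 0). The part of these markers in the result was not tested.

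**Figure D2:**
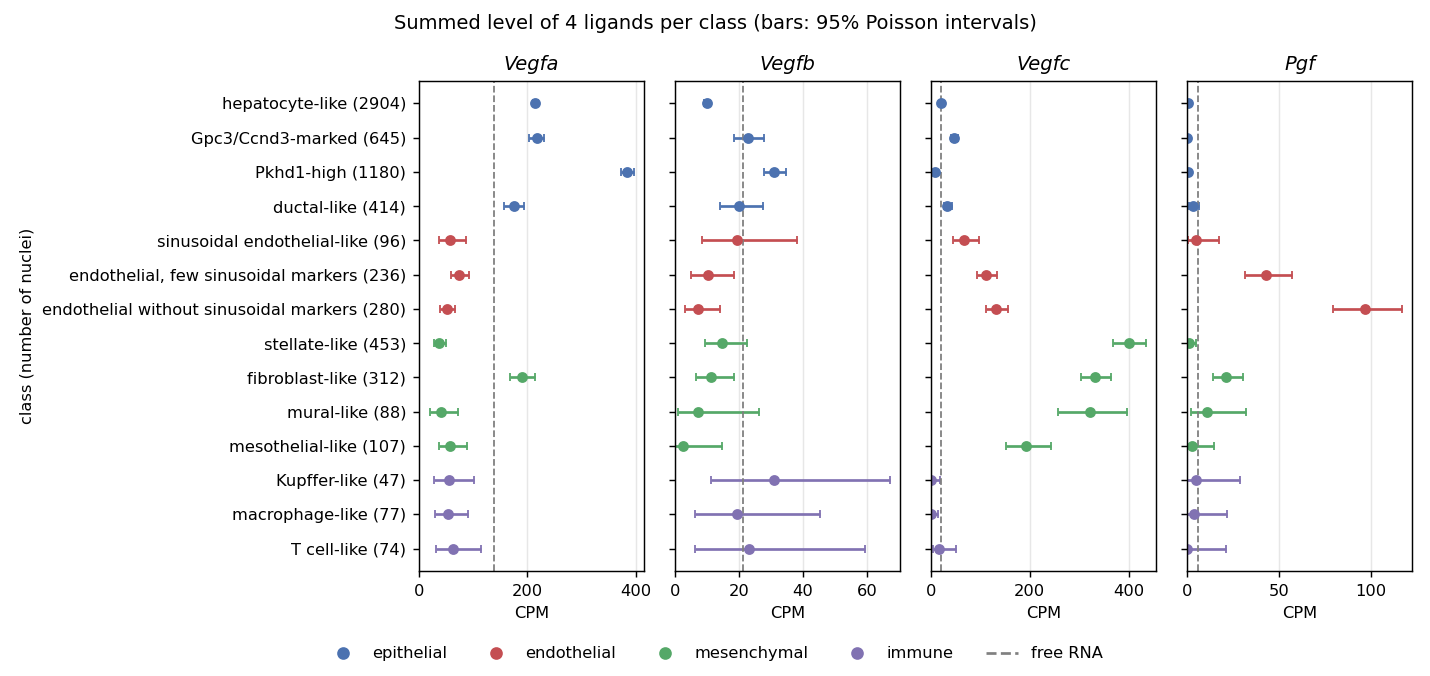
Level in CPM (horizontal axes, linear) of Vegfa, Vegfb, Vegfc and Pgf in each class, with 95% Poisson intervals. The dashed line is the level in free RNA. Vegfa is highest in Pkhd1-high nuclei, Vegfc in stellate-like, fibroblast-like and mural-like nuclei and Pgf in endothelial nuclei without sinusoidal markers.

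Vegfa, the main angiogenic ligand, stood highest in Pkhd1-high nuclei and was called in no other class. Pkhd1-high nuclei, named for Pkhd1, which encodes fibrocystin of cholangiocytes, held 384 CPM (372 to 397). This was 2.78-fold (2.67 to 2.91) above free RNA and above every other class. Gpc3/Ccnd3-marked nuclei held 217 CPM (203 to 231) and hepatocyte-like nuclei 215 CPM (210.4 to 220), which did not differ beyond their intervals. Fibroblast-like nuclei followed at 189 CPM (167 to 213) and ductal-like nuclei at 175 CPM (156 to 195). These 4 classes lay 1.26-fold to 1.57-fold above free RNA and were not called. The other 9 classes lay at 37.9 to 74.6 CPM, all below free RNA, with overlapping intervals between neighbours in the order of levels. Of all Vegfa UMIs in the 14 classes, 96.1% lay in epithelial nuclei, which held 89.2% of the UMIs of all genes. With each nucleus thinned to 2000 UMIs, 45.4% of Pkhd1-high nuclei held a Vegfa UMI, 32.6% of hepatocyte-like and 8.05% of endothelial nuclei without sinusoidal markers. Unthinned, the shares were 81.2%, 77.1% and 15.7%. Barcodes of 1 to 100 UMIs held more Vegfa, 277 CPM, and against them the ratio in Pkhd1-high nuclei was 1.41 (1.31 to 1.52) and Vegfa was not called there.

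Vegfc, which encodes a ligand of VEGFR3, stood highest in mesenchymal classes. Stellate-like nuclei, the vitamin A storing cells of the liver, held 401 CPM (369 to 435), 19.5-fold above free RNA. Fibroblast-like nuclei held 333 CPM (303 to 364), 1.21-fold (1.07 to 1.36) less, and mural-like nuclei 322 CPM (258 to 396), which did not differ from the fibroblast-like nuclei beyond the intervals. With Leiden clusters in place of the gates the highest class was fibroblast-like. Mesothelial-like nuclei, of the lining of the liver surface, held 193 CPM (151 to 242), from 73 UMIs in 17 nuclei. With each nucleus thinned to 2000 UMIs, 12.1% of them held a Vegfc UMI, against 14.9% of endothelial nuclei without sinusoidal markers. Endothelial nuclei themselves held Vegfc at 132 CPM (112 to 155) without and 112 CPM (92.7 to 134) with few sinusoidal markers. The 68.0 CPM (45.2 to 98.3) of sinusoidal endothelial-like nuclei came from 28 UMIs in 8 nuclei, and with 4 markers per gate the ratio to free RNA there was 0.539 (0.111 to 1.58). Mesenchymal nuclei gave 45.2% of all Vegfc UMIs and 5.66% of the UMIs of all genes. Epithelial nuclei gave 43.7% of Vegfc UMIs, of which hepatocyte-like nuclei alone gave 30.9% of the total, and 89.2% of the UMIs of all genes. Among epithelial classes the Gpc3/Ccnd3-marked nuclei held the most, 47.6 CPM (41.3 to 54.5), or 2.31-fold above free RNA. This call was lost in 3 alternatives, at ratios of 1.90 to 1.98. Pkhd1-high nuclei, the highest for Vegfa, held 7.71 CPM (6.07 to 9.64) of Vegfc, 0.375 times free RNA. Kupffer-like and macrophage-like nuclei held 0 UMIs of Vegfc, which allows up to 15.4 and 11.6 CPM.

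Pgf, placental growth factor, binds VEGFR1 but not VEGFR2. It was lowest in number, with 225 UMIs in the 14 classes, of which 157, or 69.8%, were endothelial. Endothelial nuclei without sinusoidal markers held 96.8 CPM (79.4 to 117), 16.4-fold (12.9 to 20.8) above free RNA, and those with few held 42.9 CPM (31.4 to 57.2). Sinusoidal endothelial-like nuclei held 2 UMIs, 4.86 CPM (0.588 to 17.6), 19.9-fold (5.38 to 166) below the nuclei without sinusoidal markers. Fibroblast-like nuclei held 21.3 CPM (14.4 to 30.4), 3.61-fold above free RNA. Hepatocyte-like nuclei held 0.403 CPM and Gpc3/Ccnd3-marked nuclei 0.231 CPM, below the 5.90 CPM of free RNA.

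Vegfb, a ligand of VEGFR1, was called in no class. Its levels ran from 2.64 CPM in mesothelial-like to 31.1 CPM (27.7 to 34.8) in Pkhd1-high nuclei, the latter 1.47-fold above free RNA. Hepatocyte-like nuclei held 9.97 CPM (9.02 to 11.01), 3.12-fold (2.68 to 3.63) below the Pkhd1-high nuclei. No neighbours in the order of its levels differed beyond their intervals, and every class outside the epithelium held 22 UMIs or fewer.

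**Figure D3:**
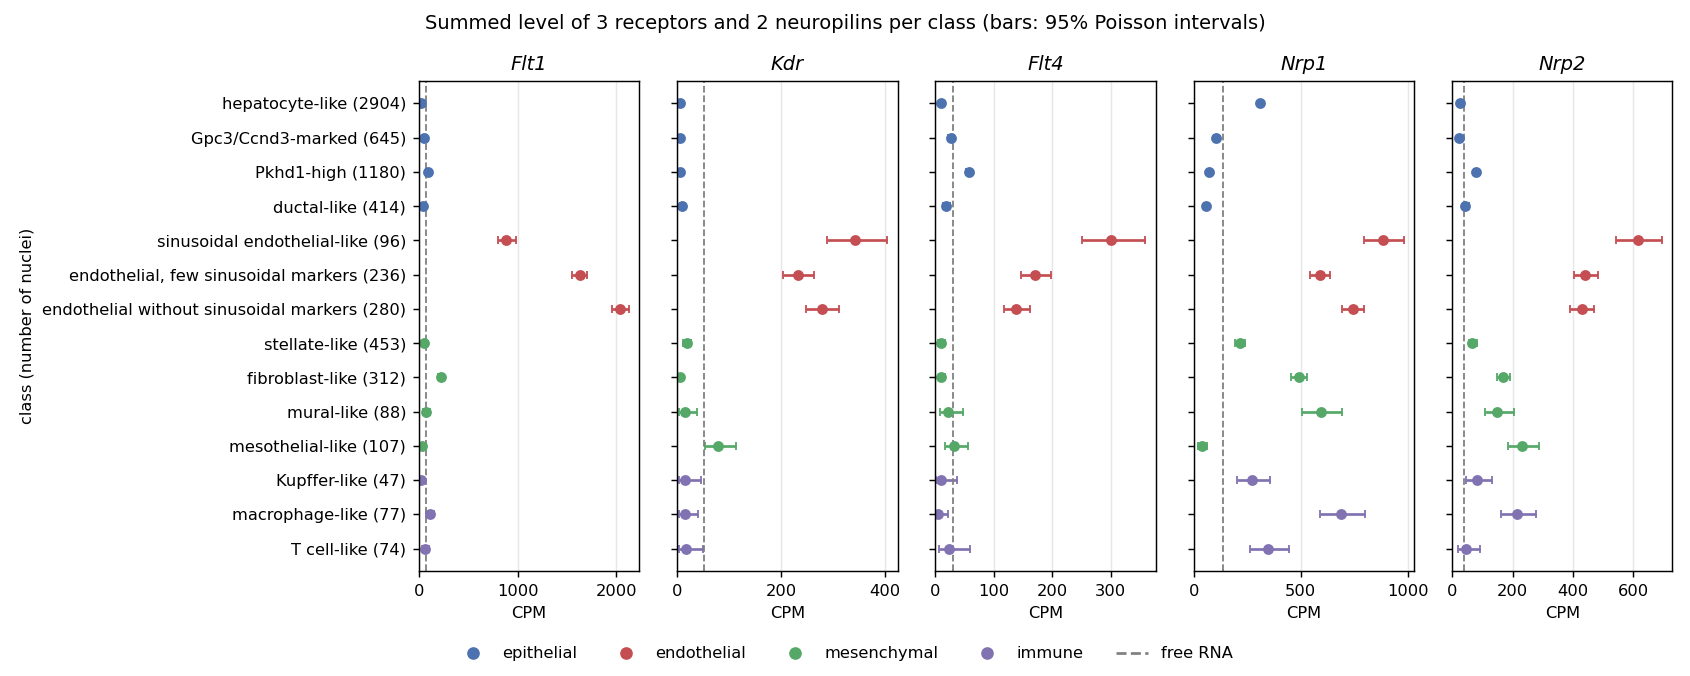
Level in CPM (horizontal axes, linear) of Flt1, Kdr, Flt4, Nrp1 and Nrp2 in each class, with 95% Poisson intervals. The dashed line is the level in free RNA. The 3 endothelial classes are highest for Flt1, Kdr, Flt4 and Nrp2, while Nrp1 is also high in macrophage-like, mural-like and fibroblast-like nuclei.

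Flt1, which encodes VEGFR1, fell in steps over the endothelial classes. It stood at 2040 CPM (1957 to 2125) without sinusoidal markers, 1629 CPM (1553 to 1707) with few and 887 CPM (798 to 983) in sinusoidal endothelial-like nuclei, each interval apart from the next. The ratios to free RNA were 27.3, 21.8 and 11.9. Fibroblast-like nuclei held 221 CPM (197 to 247), 2.96-fold (2.62 to 3.33) above free RNA. In the same nuclei Kdr stood at 4.96 CPM (2.00 to 10.2), 0.0964 times free RNA, and the 12 endothelial markers summed to 259 CPM against 378 CPM in free RNA. Flt1 thus stood above free RNA in fibroblast-like nuclei while Kdr and the endothelial markers stood below it. The 9 Pkhd1-high markers summed to 522 CPM there, against 506 CPM in free RNA. In the 291 fibroblast-like nuclei with no UMI of Zfp804a or Hmga2 the Flt1 level was 208 CPM (184 to 235). It was higher, at 358 CPM (260 to 480), in the 21 nuclei with at least 1 such UMI. Macrophage-like nuclei held 109 CPM (72.1 to 157) and Pkhd1-high nuclei 95.3 CPM (89.3 to 102), not 2-fold above free RNA. Hepatocyte-like nuclei, with 17.3 CPM, were lowest.

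Kdr, which encodes VEGFR2, stood above free RNA by 2-fold in the 3 endothelial classes and in no other. Sinusoidal endothelial-like nuclei held 343 CPM (288 to 404), endothelial nuclei without sinusoidal markers 279 CPM (249 to 311) and those with few 232 CPM (204 to 263). The first pair differed at most narrowly, with a ratio of 1.229 (1.000 to 1.504), which was 0.917 (0.665 to 1.25) with at most 1% mitochondrial UMIs and 0.855 (0.720 to 1.01) with no lineage dominance. Mesothelial-like nuclei came next at 79.2 CPM (53.5 to 113), 1.54-fold above free RNA and not called. All 10 other classes lay below free RNA, at 4.66 to 18.3 CPM.

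Flt4, which encodes VEGFR3, was highest in sinusoidal endothelial-like nuclei. They held 301 CPM (251 to 359), against 171 CPM (147 to 197) with few and 138 CPM (118 to 162) without sinusoidal markers. The last 2 did not differ beyond their intervals. The 5 lymphatic endothelial markers did not exceed free RNA in any of the 3 classes, at 86.1 to 173 CPM against 196 CPM. The lymphatic chemokine Ccl21a was at 0 in the classes without sinusoidal markers and sinusoidal endothelial-like. The 5 markers also summed to 324 CPM in hepatocyte-like and 299 CPM in ductal-like nuclei, so their sum cannot tell lymphatic nuclei apart. Whether the endothelial classes held lymphatic nuclei was not tested. Pkhd1-high nuclei held 56.8 CPM (52.2 to 61.7) of Flt4, 1.87-fold (1.69 to 2.08) above free RNA and 5.84-fold (5.12 to 6.67) above hepatocyte-like nuclei. Epithelial nuclei held 68.0% of all Flt4 UMIs, against 27.0% of those of Kdr and 28.3% of those of Flt1. They held 89.2% of the UMIs of all genes, and the level of Flt4 was 9.03-fold higher in endothelial than in epithelial nuclei.

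Between sinusoidal endothelial-like nuclei and endothelial nuclei without sinusoidal markers, 1 of the 9 genes, Flt4, was at least 2-fold higher in the former (2.18-fold, 1.70 to 2.77), where 7.86% of all genes were. Flt4 stayed higher in the 10 alternatives that held both classes but was under 2-fold in 3 of them, at 1.47 with at most 1% mitochondrial UMIs, 1.59 with no lineage dominance and 1.89 with 2 markers per gate. Another 2, Flt1 (2.30-fold, 2.06 to 2.58) and Pgf, were at least 2-fold lower, where 6.17% of all genes were. The Flt1 ratio of the former to the latter, 0.435, was 0.568 with 2 markers per gate and 0.536 with free RNA from barcodes of 1 to 100 UMIs, short of 2-fold. The neuropilins and Kdr differed by less than 1.5-fold. In nuclei thinned to 2000 UMIs, a UMI of Flt1, Kdr or Flt4 was found in 95.4% (92.1 to 97.6, Clopper-Pearson interval) of endothelial nuclei without, 89.95% with few and 90.2% of those with sinusoidal markers. The share was 6.43% in hepatocyte-like and 32.6% in fibroblast-like nuclei. Thinning left out 50 of the 612 endothelial nuclei and 213 hepatocyte-like nuclei for low depth.

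Nrp1, the neuropilin that pairs with VEGFR2, was spread over more lineages than the receptors. Sinusoidal endothelial-like nuclei held 887 CPM (798 to 983), 1.19-fold (1.05 to 1.35) above the next class. The next 3 classes could not be told apart from each other as neighbours in the order: endothelial without sinusoidal markers at 743 CPM (693 to 795), macrophage-like at 690.2 CPM (593 to 799) and mural-like nuclei at 596 CPM (508 to 695). Endothelial nuclei with few sinusoidal markers held 590.1 CPM and fibroblast-like nuclei 492 CPM (456 to 530.1). Macrophage-like nuclei thus held Nrp1 at 5.01-fold above free RNA with Kdr at 15.5 CPM, 0.301 times free RNA. T cell-like nuclei held 347 CPM (265 to 447), from 60 UMIs, and the call was lost in 3 alternatives at ratios of 1.60 to 1.99. Hepatocyte-like nuclei held 312 CPM (307 to 318), 2.26-fold above free RNA, and fell to 1.68 and 1.96 in 2 alternatives. The other 3 epithelial classes were below free RNA, at 57.0 to 103 CPM. Mesothelial-like nuclei were lowest at 37.0 CPM (20.2 to 62.0).

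Nrp2, the neuropilin that pairs with VEGFR3, was highest in the endothelial classes, at 615 CPM (541 to 695) in sinusoidal endothelial-like nuclei, 441 CPM (402 to 483) with few and 429 CPM (391 to 469) without sinusoidal markers. The lead of the sinusoidal endothelial-like nuclei over those with few markers, 1.39-fold, turned to 0.702 with Leiden clusters and 0.908 with no lineage dominance. Mesothelial-like nuclei held 232 CPM (186 to 286), macrophage-like 213 CPM (161 to 278), fibroblast-like 169 CPM (148 to 192) and mural-like nuclei 150 CPM (108 to 203), without a gap between neighbours. Mesothelial-like nuclei, high for Nrp2 and lowest for Nrp1, stood apart from fibroblast-like nuclei, in which Nrp1 was 13.3-fold higher. Kupffer-like nuclei held 82.3 CPM (47.0 to 134) from 16 UMIs, 2.07-fold above free RNA, and the call was lost in 4 alternatives. Pkhd1-high nuclei held 78.8 CPM (73.3 to 84.5), 1.99-fold above free RNA and not called. Stellate-like nuclei, the highest for Vegfc, held Nrp2 at 67.1 CPM (54.5 to 81.6) and Flt4 at 9.48 CPM.

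The mesenchymal classes shared Vegfc and parted in the other genes. Stellate-like against fibroblast-like nuclei had 5 of the 9 at least 2-fold lower, Vegfa, Pgf, Flt1, Nrp1 and Nrp2 (10.2% of all genes), and 1 higher, Kdr (5.26%), at 18.3 CPM still below free RNA. Against mural-like nuclei they had 2 lower, Nrp1 and Nrp2 (6.33% of all genes), and 0 higher (4.51%). Fibroblast-like nuclei thus carried ligands and Flt1 that stellate-like nuclei did not carry at that level. Fibroblast-like against mural-like nuclei had 2 higher, Vegfa (4.71-fold, 2.59 to 9.54) and Flt1 (2.88-fold, 1.85 to 4.72), where 5.89% of all genes were, and 0 lower (4.6%). Mesothelial-like against fibroblast-like nuclei had 2 higher, Kdr (15.96-fold, 6.87 to 43.1) and Flt4 (3.19-fold, 1.35 to 7.44), where 9.29% of all genes were, and 4 lower, Vegfa, Pgf, Flt1 and Nrp1 (12%). Neither Kdr nor Flt4 was called above free RNA in mesothelial-like nuclei. Flt4, from 12 UMIs, stood there at 31.7 CPM against 30.3 CPM in free RNA. Among the immune classes, Kupffer-like against macrophage-like nuclei had 3 lower, Flt1, Nrp1 and Nrp2 (6.86% of all genes), and 0 higher (7.06%). Nrp1 was 2.53-fold (1.85 to 3.51) lower in the Kupffer-like nuclei, the resident macrophages of the liver.

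**Figure D4:**
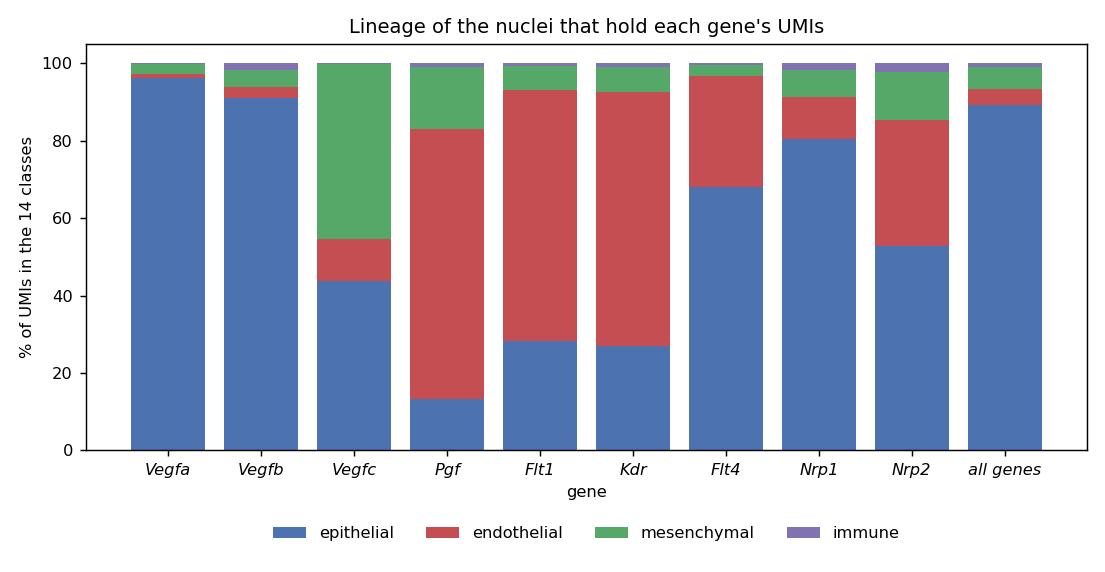
Share of the UMIs of each gene (vertical axis, percent of its UMIs in the 14 classes) held by epithelial, endothelial, mesenchymal and immune nuclei, with all genes as the last bar. Vegfa lies at 96.1% in epithelium, Kdr at 65.7% and Flt1 at 64.9% in endothelium, and Vegfc at 45.2% in mesenchymal nuclei.

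Among the epithelial classes, Pkhd1-high nuclei differed from hepatocyte-like nuclei in most of these genes. Against hepatocyte-like nuclei 4 of the 9 were at least 2-fold higher, Vegfb, Flt1, Flt4 and Nrp2, where 20.6% of all genes were, and 2 were at least 2-fold lower, Vegfc and Nrp1, where 16.6% were. Flt1 was 5.50-fold (4.98 to 6.08) higher, while Nrp1 was 4.44-fold (4.11 to 4.80) lower, at 70.3 CPM (65.1 to 75.7). Against ductal-like nuclei, 3 were at least 2-fold higher, Vegfa, Flt1 and Flt4 (6.43% of all genes), and 1 lower, Vegfc (11.1%). Vegfa was 2.20-fold (1.97 to 2.47) higher than in ductal-like nuclei. Against Gpc3/Ccnd3-marked nuclei, 2 were at least 2-fold higher, Flt4 and Nrp2 (3.89% of all genes), and 1 lower, Vegfc (9.18%), which was 6.18-fold (4.72 to 8.14) lower. The higher levels of Flt1 and Nrp2 did not hold in the larger of 2 kinds of Pkhd1-high nuclei, described next.

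The Pkhd1-high nuclei held 2 kinds that parted in Flt1 and Nrp2. The kinds were split by UMIs of Kcnj16 and Slc8a3, a potassium channel and a sodium-calcium exchanger, against UMIs of Zfp804a and Hmga2, the latter a chromatin protein of fetal tissue. A nucleus needed at least 2 UMIs of 1 pair and 3 times those of the other. The split was chosen after clusters of the nuclei had been seen, so it is a description. The splitting genes are also markers of the Pkhd1-high gate. Pkhd1 itself stood at 3831 CPM in the Kcnj16/Slc8a3 kind and 974 CPM in the Zfp804a/Hmga2 kind. In the Kcnj16/Slc8a3 kind, 718 nuclei, Flt1 stood at 11.9 CPM (9.26 to 14.96), and in the Zfp804a/Hmga2 kind, 180 nuclei, at 402 CPM (373 to 434), 33.9-fold (26.6 to 44.0) higher. Nrp2 stood at 10.7 CPM (8.23 to 13.6) and 306 CPM (281 to 333), 28.6-fold (22.1 to 37.7) higher. The intervals were far apart for both genes, and at least 1 UMI of Flt1 was found in 77.8% of the latter nuclei and 7.94% of the former, at median depths of 8336 and 7735 UMIs. The 282 nuclei of neither kind lay between, with Flt1 at 82.9 CPM and Nrp2 at 87.0 CPM. Both levels of the Kcnj16/Slc8a3 kind lay below those of hepatocyte-like nuclei, 17.3 CPM for Flt1 and 24.9 CPM for Nrp2.

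The other VEGF genes differed less between the kinds. Vegfa stood at 333 CPM (319 to 348) in the Kcnj16/Slc8a3 kind and 426 CPM (395 to 458) in the Zfp804a/Hmga2 kind, 1.28-fold higher. Vegfc was 3.28-fold (1.94 to 5.52) higher in the Zfp804a/Hmga2 kind, but at 18.1 CPM it lay below free RNA. Flt4 was 1.58-fold and Nrp1 1.71-fold higher there. Kdr was alike low, at 6.18 CPM (4.35 to 8.52) and 5.83 CPM (2.80 to 10.7). Of the 9 genes, 3 were thus at least 2-fold higher in the Zfp804a/Hmga2 kind, where 7.01% of all genes were, and 0 lower, where 9.46% were. The 12 endothelial markers summed to 66.5 CPM in the Kcnj16/Slc8a3 kind and 59.5 CPM in the Zfp804a/Hmga2 kind, with none of them at 0, against 378 CPM in free RNA. The Flt1 ratio ran from 23.0 to 67.4 over the alternatives. Whether the kinds differ by sample cannot be told apart, since no barcode names a sample.

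**Figure D5:**
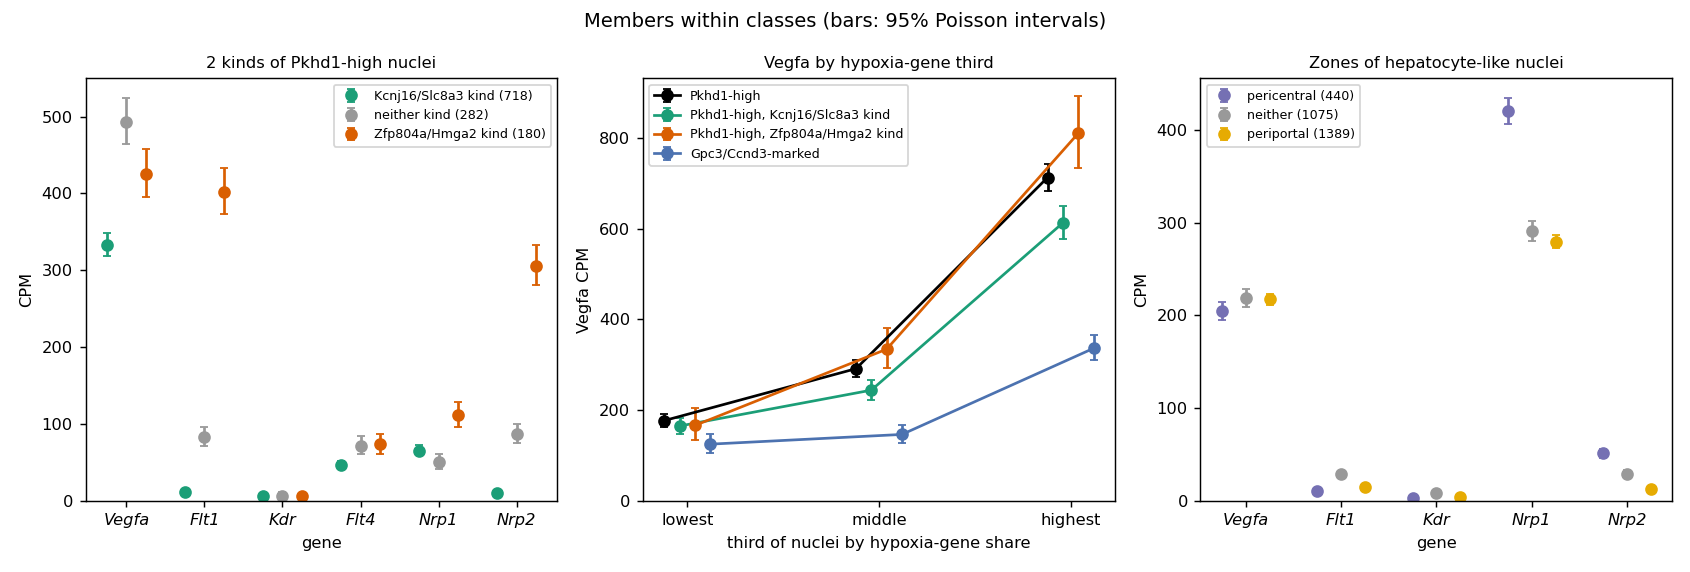
Levels in CPM (vertical axes, linear, with 95% Poisson intervals) within classes. Left, 6 genes in the kinds of Pkhd1-high nuclei, with Flt1 and Nrp2 high in the Zfp804a/Hmga2 kind. Middle, Vegfa over 3 groups of nuclei by hypoxia-gene share, rising from 177 to 713 CPM in Pkhd1-high nuclei. Right, 5 genes by zone of hepatocyte-like nuclei, with Nrp2 and Nrp1 highest in the pericentral group.

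Vegfa varied within the Pkhd1-high class along the genes of the hypoxia response. Nuclei were put into 3 equal groups by the share of their UMIs in 17 such genes, Vegfa left out. Vegfa stood at 177 CPM (163 to 192) in the group of lowest share, 291 CPM (274 to 310.1) in the middle and 713 CPM (684 to 744) in the highest, 4.03-fold (3.68 to 4.42) above the lowest. All 3 intervals were apart, at median depths of 7613, 7963 and 7174 UMIs. The same order held within each kind: 165, 244 and 613 CPM in the Kcnj16/Slc8a3 kind, and 166, 334 and 811 CPM in the Zfp804a/Hmga2 kind. In Gpc3/Ccnd3-marked nuclei Vegfa stood at 125, 146 and 336 CPM, 2.69-fold (2.24 to 3.25) from lowest to highest. Between the highest and lowest groups of Pkhd1-high nuclei, 1 of the 9 genes, Vegfa, was at least 2-fold higher, where 2.83% of all genes were, and 1, Nrp2, at least 2-fold lower, where 4.5% were. Within the Kcnj16/Slc8a3 kind, 1 was higher, Vegfa (2.49% of all genes), and 2 lower, Vegfc and Nrp2 (3.89%). Within the Zfp804a/Hmga2 kind, 1 was higher, Vegfa (4.15%), and 0 lower (3.24%), and Flt1 stood at 298, 399 and 512 CPM. In Gpc3/Ccnd3-marked nuclei 2 were higher, Vegfa and Flt4 (4.87%), and 0 lower (5.73%). Nuclei of 1 pooled sample are not replicates, and these groups describe how the gene varied among them.

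The Vegfa ratio was 3.93 in nuclei thinned to 2000 UMIs and 4.21 with Ndrg1, a stress gene of high level, left out of the 17. The receptor ratios did not hold in that way. Nrp2 was 0.466 (0.384 to 0.564) and Flt1 0.691 (0.587 to 0.812) in the highest group, but without Ndrg1 they were 1.12 (0.936 to 1.34) and 1.73 (1.47 to 2.03). Ndrg1 itself stood at 2609 CPM in the Kcnj16/Slc8a3 kind and 1330 CPM in the Zfp804a/Hmga2 kind, which carries Flt1 and Nrp2. The part of the kinds in these ratios was not tested.

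Within hepatocyte-like nuclei, the neuropilins followed the zones of the liver lobule. Pericentral nuclei lie by the central vein and make glutamine through Glul, and periportal nuclei lie by the portal tract. By 10 pericentral and 9 periportal markers, at least 3 met and 2 times those of the other zone, 440 nuclei were pericentral and 1389 periportal. Nrp2 stood at 51.0 CPM (46.4 to 56.1) in pericentral and 12.9 CPM (11.4 to 14.5) in periportal nuclei, 3.96-fold (3.399 to 4.618) higher, and at 29.0 CPM (25.7 to 32.7) in the 1075 others. Nrp1 stood at 420.0 CPM (406 to 434) and 279 CPM (272 to 286), 1.504-fold (1.443 to 1.568) higher. The receptors did not follow the neuropilins: Flt1 stood at 10.5 and 15.2 CPM, Flt4 at 6.01 and 9.03 CPM and Kdr at 2.83 and 3.87 CPM, pericentral first, all below free RNA. Vegfa was nearly level, at 205 CPM (195 to 214) and 217 CPM (211 to 224). Of the 9 genes, 1 was at least 2-fold higher in pericentral nuclei, where 3.9% of all genes were, and 0 in periportal nuclei, where 4.92% were. The endothelial markers summed to 40.7 CPM in pericentral and 55.7 CPM in periportal nuclei and the sinusoidal markers to 97.7 and 86.6 CPM, all below free RNA. The pericentral level of Nrp2 lay above the 39.7 CPM of free RNA and the periportal level below it. Median depth was 16935 UMIs in pericentral, 13582 in periportal and 4841 in the other nuclei.

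Genes around the pathway were followed through lists, and each count is read against the share of all genes called in that class, which was 20.2% in endothelial nuclei without sinusoidal markers, 18.2% in sinusoidal endothelial-like, 23.3% in fibroblast-like and 27.5% in Pkhd1-high nuclei. In endothelial nuclei without sinusoidal markers, 15 of 16 tested genes of tip cells and Notch signalling, which shape vessel sprouts, were called, with a median of 8.37-fold above free RNA against 0.977-fold over all genes tested. The highest were Kcne3 (37.0-fold), Hey1 (20.2-fold), Dll4, the Notch ligand of tip cells (19.9-fold), and Esm1 (18.0-fold). Of the angiopoietin and Tie genes, 2 of 3 were called, Angpt2, which loosens vessels (20.4-fold), and its receptor gene Tek (16.6-fold). Of the VEGF receptor signalling genes, 10 of 31 were called and 2 were at least 2-fold lower (median 1.67-fold), led by the kinase Fyn (35.7-fold), with the endothelial nitric oxide synthase Nos3 and the kinase Ptk2 (6.15-fold) among them. Of 12 class 3 semaphorin and plexin genes, 6 were called (median 3.61-fold), with Sema3g at 15.9-fold and Sema3a at 14.8-fold. Among 9 tested inhibitors of angiogenesis 4 were called (median 1.64-fold), with Vash1, which endothelium makes as a brake, at 47.7-fold and Spry4 at 11.7-fold. Other classes had like counts for several of these lists. Of the inhibitors, fibroblast-like nuclei had 7 of 9 called (median 3.74-fold). Of the angiopoietin and Tie genes, fibroblast-like and mural-like nuclei (16.9% of all genes called in the latter) each had 2 of 3 called. Of the semaphorin and plexin genes, mesothelial-like nuclei (17.3%) had 6 of 12 called. The VEGF receptor signalling list was not particular to endothelium either. Some classes with Kdr below free RNA had as many called: 13 of 32 in T cell-like (14.5% of all genes), 14 of 31 in Kupffer-like (17.5%) and 11 of 31 in Pkhd1-high nuclei. Fewer were called in others, such as 2 in hepatocyte-like (20.5%) and 7 in stellate-like nuclei (17.5%).

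Sinusoidal endothelial-like nuclei had 7 of 16 tip cell and Notch genes called, at a median of 2.23-fold, with Kcne3 at 14.6-fold and Dll4 at 6.51-fold. Endothelial nuclei with few sinusoidal markers had 14 of 16 called (20.2% of all genes). Outside endothelium, fibroblast-like nuclei had 7 of 17 called (23.3%), stellate-like 6 (17.5%) and mural-like 6 (16.9%). In sinusoidal endothelial-like nuclei Tek was 35.0-fold and Angpt2 7.69-fold above free RNA. Sema3a, a ligand of Nrp1, stood at 241 CPM, 54.2-fold (41.6 to 70.3) above free RNA. Fibroblast-like nuclei had 7 of 9 genes called in the list of other VEGF and PDGF family genes and Vegfc processing. The median was 6.22-fold against 1.09-fold over all genes. The called genes were led by Pdgfrb (29.6-fold), Ccbe1 (15.8-fold), Pdgfra (14.4-fold) and Adamts3 (9.27-fold). The other mesenchymal classes had like counts for this list: 7 of 9 in mural-like (median 7.91-fold, 16.9% of all genes called), 6 in stellate-like (3.08-fold, 17.5%) and 6 in mesothelial-like nuclei (3.42-fold, 17.3%). Ccbe1 and Adamts3 encode the cofactor and the protease that cut pro-VEGF-C into its active form, and Vegfc was called in the same class.

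Pkhd1-high nuclei, the highest for Vegfa, had 10 of 17 hypoxia genes called and 0 at least 2-fold lower, at a median of 2.38-fold against 1.23-fold over all genes. The highest were Ndrg1 (6.82-fold), the glycolytic enzyme Hk2 (6.10-fold), the oxygen sensor Egln3 (4.79-fold) and Kdm3a (3.52-fold). Of the 9 other VEGF and PDGF family and Vegfc processing genes, 3 were called, a share near that of all genes, and 3 were lower. The called ones were the ligand genes Pdgfb (3.66-fold), Pdgfc (3.41-fold) and Pdgfa (2.21-fold). Of the inhibitors, 1 of 9 was called, Timp3, and 7 were lower, at a median of 0.164-fold. The inhibitors were likewise low in the other epithelial classes. There 7 were lower in hepatocyte-like (median 0.261-fold), 5 in Gpc3/Ccnd3-marked (0.208-fold) and 5 in ductal-like nuclei (0.338-fold). Of the hypoxia genes, Gpc3/Ccnd3-marked nuclei had 8 of 17 called and 0 lower, at a median of 1.48-fold (28.3% of all genes called). Ductal-like nuclei had 3 called (25.3%) and hepatocyte-like nuclei 0 (20.5%), with 5 lower.

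The genes whose levels were most like those of each member were sought over the 13 classes of at least 50 nuclei, as Pearson's r of log2(CPM + 10) among 12983 genes that mark no class. All classes share 1 library and its free RNA, so r is a description. Vegfa was most like Stam (r = 0.95), Gm31728 (0.93) and Gm11655 (0.90). Vegfb was most like Cnnm3 (0.92), Vegfc like Bmp4 (0.96), Slc24a3 (0.94) and Rbms3 (0.94), and Pgf like Nes, Cd109 and Rapgef4os1 (0.95 each). Kdr was most like the water channel gene Aqp1 (0.99), Cavin2 (0.97) and Samd12 (0.95), and Flt1 like Rps6ka2 (0.97), Adamts4 (0.96) and Exoc5 (0.95). Flt4 was most like Pik3c2b (0.93), Nrp1 like Pros1, which encodes protein S (0.93), and Nrp2 like Parvb (0.92). Aqp1 was highest in sinusoidal endothelial-like nuclei at 146 CPM, as Kdr was, and Bmp4 was highest in mural-like nuclei at 65.8 CPM.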

How the data were processed

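Per the submitters' processing notes, Cell Ranger 5.0 and mm10 were used, and the deposited matrices hold raw UMI counts per gene and barcode; their handling of introns and strand was not given in the sources. Libraries were 3′ single-nucleus libraries, per the labels' protocols. The filtered matrix held 95130408 UMIs in 17169 barcodes (891 to 125991 each, median 2794), 64.3% of all UMIs. Filters required 500 UMIs, 300 genes and a mitochondrial share of no more than 5%, and removed 758 barcodes. Free RNA was the sum of 49929 uncalled barcodes of 500 to 849 UMIs. Of 323 doublets that scrublet called among 9632 nuclei of at least 2000 UMIs, 165 lay in the 14 classes and stayed, and nuclei with markers of several lineages were left out as mixed. Class sums, ratios and exact Poisson and Clopper-Pearson intervals (95%) were computed with Python 3.11.15, scipy 1.17.1 and scanpy 1.11.5, and tested on simulated data. A count of 0 was limited by 3 UMIs. Genes named are the 9 members, for each the 3 most alike genes, some of which are given, and from each pathway list up to 4 genes of highest ratio in the class described. One gene that this rule names is not reported here. The members and lists were chosen with earlier results of these data known. Alternatives changed the gate, the filters, free RNA, the totals, doublets and the clustering.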

Additional observations from a re-analysis of the deposited data

How the results depend on the processing

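No paired analysis was possible because both samples are 1 group and no barcode names its sample, and for the same reason no sample could be left out. Of 38 calls of a gene above free RNA, 394 of 408 values under the alternatives kept the call and 14 did not. Among called ratios, those that turned direction were Vegfc in sinusoidal endothelial-like nuclei at 0.539 with 4 markers per gate, Nrp2 in Kupffer-like nuclei at 0.899 with 3 times lineage dominance, and Nrp2 over the hypoxia groups at 1.12 without Ndrg1. With free RNA from barcodes of 1 to 100 UMIs, the number of genes called was 0 in hepatocyte-like, Gpc3/Ccnd3-marked, Pkhd1-high, Kupffer-like and T cell-like nuclei, against 1 each. With the 50 most abundant genes left out of totals it was 0 in hepatocyte-like, Gpc3/Ccnd3-marked and Kupffer-like nuclei. With Leiden clusters it was 0 in Gpc3/Ccnd3-marked nuclei and 2 in Pkhd1-high and Kupffer-like nuclei. In Pkhd1-high and Kupffer-like nuclei it was also 2 with 2 markers per gate, with free RNA taken off and with no lineage dominance, and in Kupffer-like nuclei with at least 2000 UMIs or at most 1% mitochondrial UMIs. It was 0 in Kupffer-like nuclei with 3 times dominance and 0 in T cell-like nuclei with no dominance. The highest class, among those of at least 50 nuclei, was the same for 5 of 9 genes with at most 1% mitochondrial UMIs. There only 35 sinusoidal endothelial-like nuclei were left, so that class did not enter, and the highest was endothelial nuclei without sinusoidal markers for Kdr, Flt4 and Nrp1 and those with few for Nrp2. Those 35 nuclei over nuclei without sinusoidal markers gave 1.47 for Flt4, 1.05 for Nrp1, 1.51 for Nrp2 and 0.917 for Kdr. It was the same for 4 genes with Leiden clusters, which held no class of endothelial nuclei without sinusoidal markers and no mural-like class: Flt1, Kdr, Nrp2 and Pgf were highest with few sinusoidal markers and Vegfc in fibroblast-like nuclei. With no lineage dominance Kdr was highest without and Nrp2 with few sinusoidal markers, and with 2 markers per gate Vegfb was highest in Kupffer-like nuclei, then 82 in number against 47. The Flt1 ratio between the kinds of Pkhd1-high nuclei was 45.3 with 4 markers per gate, 67.4 with free RNA taken off, 47.1 with 3 times dominance and 23.0 with none, against 33.9. The Nrp2 ratio between the kinds was 40.0 with free RNA taken off, against 28.6, and that between the zones 4.86 with Leiden clusters and 2.87 with no dominance, against 3.96. The cause was not tested. The dominance settings, the zones, the kinds and the ratios between endothelial classes were chosen after seeing the data. Depth limits the small classes: Kupffer-like Nrp2 rests on 16 UMIs and T cell-like Nrp1 on 60.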
